A study of Mus musculus with 2 samples.

Results

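The Notch genes measured here are 10 of the 27827 gene names on the array. They were chosen by name, with earlier results of these data known. They are the receptors Notch1, Notch2 and Notch3, the ligands Jag1, Jag2 and Dll1, the receptor-modifying enzyme Lfng, and the targets Hes1, Hey1 and Heyl. They are read by 16 probes, and 33 spots were kept on each array. RNA came from mouse prostaspheres, spheres grown in Matrigel from epithelial cells of the urogenital sinus (UGS), the embryonic tissue that forms the prostate, taken at 16 dpc per the labels. The study's methods for the arrays refer to a prostasphere assay that starts from adult prostate, so the age of the tissue is not settled here. The study compared 4 RNAs on 2 arrays of 1 slide. In the genotype comparison, wild-type C57/Bl6J prostaspheres treated with tamoxifen (TAM, 5 µM) were set against TAM-treated ER-Sox9flox/flox prostaspheres. In the treatment comparison, vehicle-treated ER-Sox9flox/flox prostaspheres were set against TAM-treated ones of the same genotype. All prostaspheres grew for 6 days with dihydrotestosterone and then for 6 days with TAM or vehicle. The Cre is fused to the estrogen receptor, is made from the Rosa26 locus, which is active in most cell types, and is switched on by TAM. How many animals or cultures went into an RNA is not given in the sources used here.

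The RNA of Sox9-expressing prostaspheres carried Cy5 on both arrays and that of Sox9-deleted prostaspheres carried Cy3, so dye and Sox9 status cannot be told apart. A log2 ratio is Cy5 over Cy3, and a value above 0 means more signal with Sox9. The wild-type and flox RNAs also came from different mouse lines. The p-values measure only the spread between 2 arrays, which answer different questions. In limma this spread is drawn in part from all tested probes and not from the gene alone. The brightest of the 3 Sox9 probes gave log2 ratios of 2.69 and 2.37 in the genotype and treatment comparisons, and 1 dimmer Sox9 probe went the other way on both arrays, at -0.997 and -1.22. Of the lists of cell type markers, 10 of 11 basal genes were higher with Sox9 on both arrays. Their summed brightness was 394718 and 337628 in the Sox9-expressing RNAs and 127145 and 125873 in the Sox9-deleted RNAs. Of 10 luminal markers, 9 were well above background in all 4 RNAs, among them Hoxb13, a homeobox gene of the prostate. The 9 tested did not move one way. With Sox9, 4 had a lower signal in both comparisons, 3 a higher one, Hoxb13 among these, and 2 had opposite signs. The summed brightness of the luminal list was 219031 in wild-type TAM and 188637 in flox vehicle. In flox TAM it was 240846 on the genotype array and 279253 on the treatment array. In bulk RNA, fewer cells of a type and less RNA per cell cannot be told apart.

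Notch receptors sit in the membrane and are bound by Jagged or Delta-like ligands on the neighboring cell. Binding exposes the receptor to ADAM proteases and then to γ-secretase, which frees the intracellular domain to enter the nucleus, join RBPJ and switch on genes such as Hes1, Hey1 and Heyl, which encode repressors of transcription. Fringe enzymes such as Lfng add a sugar to the receptor and thereby set which ligands it answers. In prostate epithelium the pathway is known for its part in branching and in the differentiation of basal and luminal cells.

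Stretches of the probes behind the main values are given first, from the probe sequences in the deposited files, on the strand of the transcript. They show which letters of each transcript were read. The array reads each gene through 60 bases, of which the first 30 are shown except for Notch1, where a later stretch holds AATAAA, the letters of the polyadenylation signal, in capitals. The Hes1 and Lfng probes are shown whole.
Notch1: ctgttccaagaaAATAAActagttctcaga
Jag1: ggagtattctcataagctagttgaatactt
Jag2: ttgtataaattattcaacggctgtcaggcg
Dll1: gattactatgagccagtctttccttgaact
Hes1: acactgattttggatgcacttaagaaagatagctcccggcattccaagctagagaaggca
Hey1: gatttgggctctaaaagtattgttttacag
Heyl: aatcattttcttcaaggtctttgcccttct
Lfng: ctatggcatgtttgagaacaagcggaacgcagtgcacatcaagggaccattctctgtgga

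Per the file headers, positions are on mm9. The brightest Notch2 probe lies at chr3:97953914-97953973 and the Notch3 probe at chr17:32257848-32257907. The Notch1 probe lies at chr2:26314772-26314830, Jag1 at chr2:136907433-136907492, Jag2 at chr12:114146887-114146946 and Dll1 at chr17:15504623-15504682. The Hes1 probe lies at chr16:30065983-30066278, a span of 296 bases for 60 bases of probe, so it bridges a gap in the genome. Hey1 was read at chr3:8663432-8663491, Heyl at chr4:122926975-122927034 and Lfng at chr5:141090156-141090215. Exons and UTRs of these genes were not annotated here.

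All 10 genes passed the filter on dim probes, Lfng only through Cy5, the dye of the Sox9-expressing RNA. Such a pass favors a ratio above 0. Of the 10 genes, Lfng included, 9 were higher with Sox9 on each array taken alone. Over all 15131 genes tested, 47.8% were higher on the genotype array and 52.3% on the treatment array. Of the 10 genes, 8 were higher with Sox9 on both arrays, 0 were lower on both and 2, Notch1 and Heyl, had opposite signs. Of all genes tested, 33.8% were higher on both arrays. With both dyes required to be well above background, 9 of the Notch genes were left. Of these, 7 were higher on both arrays, against 34.9% of all genes. The 10 genes were chosen with earlier results of these data known, so counts set beside all genes are a description only. The median log2 ratio of the 10 genes was 0.30 on the genotype array, 0.25 on the treatment array and 0.27 in the mean of both, against -0.0089, 0.011 and 0.0032 over all genes. With the main processing the differences were small in size. No gene of the 10 was 2-fold different on both arrays, where the share of all genes was 0.535%. With that processing none was 2-fold on either array alone, where the share was 1.67% and 2.11%. Jag2 was at least 1.5-fold higher on both arrays, a size that 2.25% of all genes reached in either direction and 1.36% reached as higher with Sox9. At least 1.5-fold on 1 array were Jag1 and Jag2 in the genotype comparison, against 5.62% of all genes, and Jag2 and Hey1 in the treatment comparison, against 7.05%.

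None of the 10 genes passed limma's test of the mean log2 ratio at an adjusted p of 0.05, which 2 of the 15131 genes passed (0.0132%). Both were lower with Sox9, and 0 probes higher with Sox9 passed. The brightest Sox9 probe did not pass either, at a mean log2 ratio of 2.53 (limma adjusted p 0.0627). At an unadjusted p of 0.05, limma marked 5 of the 10 genes, Notch3, Jag1, Jag2, Hes1 and Lfng, all higher with Sox9. Lfng is counted here although it passed the filter only through Cy5. The share of all genes marked was 19.5%, and 10.5% were marked as higher. The paired test named in the study's methods marked 0 of the 10 after adjustment, and 0 of all 22731 tested probes. Its adjusted p was 0.584 for Notch3 and Hes1, the lowest of the 10.

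**Figure D1:**
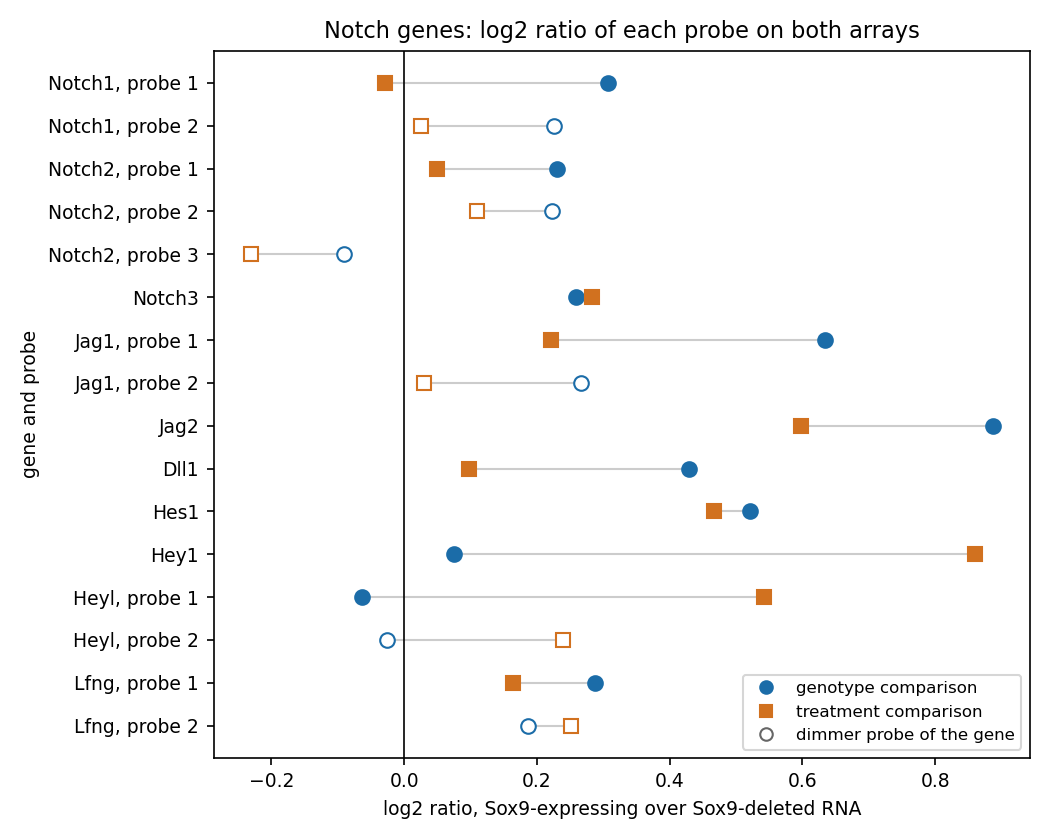
Log2 ratio (Sox9-expressing over Sox9-deleted RNA, x axis) of each of the 16 probes of the 10 Notch genes (y axis), with a circle for the genotype comparison and a square for the treatment comparison and open symbols for dimmer probes of a gene. Notch3 and Hes1 have nearly equal values on both arrays, Hey1 and Heyl lie far to the right only as squares, and probe 3 of Notch2 is the one probe left of 0 on both arrays.

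Among the receptors, Notch3, which is known from vascular smooth muscle and from epithelium, had the most even values. Its brightness, the probe's signal after background correction and normalization in units of the scanner, was 853 in wild-type TAM, 814 in flox vehicle, and 713 and 669 in the flox TAM RNAs of the genotype and treatment comparisons. Both Sox9-expressing RNAs were brighter than both deleted ones. A gene so separated is also higher on both arrays, as 33.8% of all genes tested were. The share of all genes so separated is not given here, so such a separation, here and below, is a description only. The log2 ratios were 0.26 and 0.28, with a mean of 0.27 ± 0.018 (SD, n = 2 arrays), and the limma adjusted p was 0.217.

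Notch1, the receptor best known from basal epithelium and T cells, was brightest in wild-type TAM, at 273, against 221 in flox TAM on the same array. On the treatment array it was 198 in flox vehicle and 202 in flox TAM. The Sox9-expressing and Sox9-deleted RNAs overlapped, since flox vehicle was the dimmest of the 4. Its log2 ratios of 0.31 and -0.029 had a mean of 0.14 ± 0.24 (SD, n = 2 arrays, limma adjusted p 0.564). A second Notch1 probe gave 0.23 and 0.025, in the same order. The first probe was printed at several places of each array, and its 9 spots on the genotype array ranged from 0.24 to 0.37, while its 10 spots on the treatment array ranged from -0.17 to 0.15. The spots of the arrays did not overlap, and their spread covers printing and scanning and no difference between cultures.

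Notch2, a close relative of Notch1, had a brightness of 1422 in wild-type TAM and 1212 in flox TAM of the genotype comparison. On the other array it was 1211 in flox vehicle and 1170 in flox TAM. Wild-type TAM stood above the other 3 RNAs, and flox vehicle was just below the deleted RNA of the other array, so the groups overlapped. This probe gave log2 ratios of 0.23 and 0.049 (mean 0.14 ± 0.13, limma adjusted p 0.462). The 3 Notch2 probes disagreed: a second probe gave 0.22 and 0.11, and the last gave -0.091 and -0.23. With the mean of the 3 probes in place of the brightest, Notch2 was at -0.024 in the treatment comparison.

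Of the ligands, Jag2, which encodes a Jagged ligand, differed the most of the 10 genes. Its brightness was 260 in wild-type TAM and 141 in flox TAM on the genotype array. It was 200.4 in flox vehicle and 132 in flox TAM on the treatment array. Both Sox9-expressing RNAs stood above both deleted ones. The log2 ratios were 0.89 and 0.60, or 1.85-fold and 1.51-fold, with a mean of 0.74 ± 0.20 (SD, n = 2 arrays) and a limma adjusted p of 0.126, the lowest of the 10. The mean lay above that of 98.5% of all genes tested. The constant of 50 added to every signal understates the ratio of a dim probe, and with a constant of 10 Jag2 was at 0.99 (limma adjusted p 0.119). The processed signals of the scanner software differ in several steps. With them Jag2 was at 2.26 and 0.87 on the arrays, with a mean of 1.57 (limma adjusted p 0.230).

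Jag1, the other Jagged ligand, had a brightness of 5448 in wild-type TAM and 3512 in flox TAM of the genotype comparison. In the treatment comparison the values were 3799 and 3258. The Sox9-expressing RNAs were again above the deleted ones without overlap, and wild-type TAM was well above the other 3. In log2 ratio Jag1 was at 0.63 and 0.22 (mean 0.43 ± 0.29, limma adjusted p 0.242). A second, dimmer Jag1 probe gave 0.27 and 0.031, lower than the first on both arrays.

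Dll1, a Delta-like ligand, had the pattern of Notch1. It was at 227 in wild-type TAM, 168 in flox TAM of the same array, 165 in flox vehicle and 154 in flox TAM of the other array. Wild-type TAM was the one RNA that stood apart, and flox vehicle lay between the deleted RNAs. Its log2 ratio was 0.43 on the genotype array and 0.098 on the treatment array (mean 0.26 ± 0.23, limma adjusted p 0.336). The 10 spots of the Dll1 probe in the genotype comparison ranged from 0.29 to 0.53 and the 9 spots in the treatment comparison from -0.022 to 0.20, again without overlap.

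**Figure D2:**
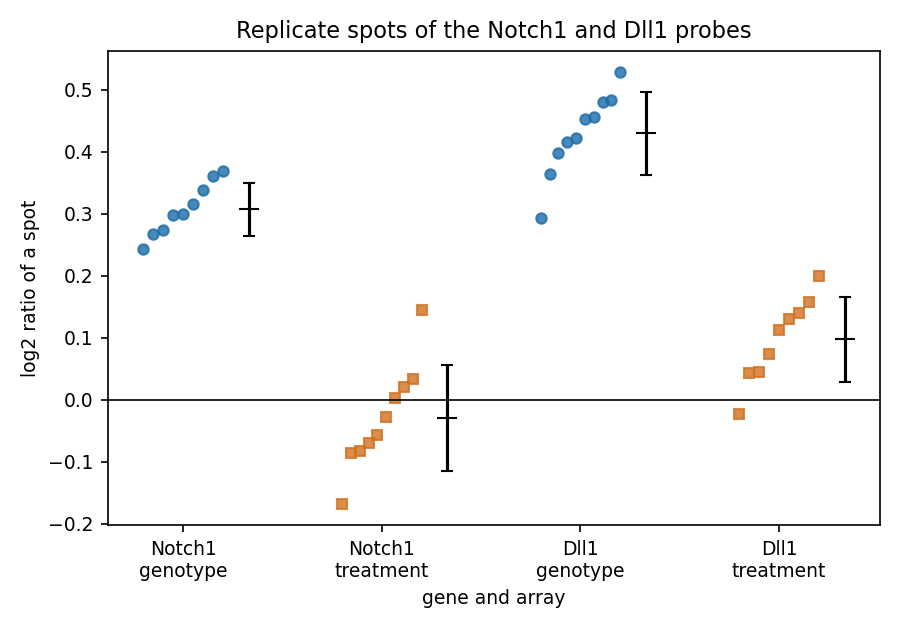
Log2 ratio (y axis) of the single spots of the Notch1 and Dll1 probes on each array (x axis), in order of value, with circles for the genotype comparison and squares for the treatment comparison, and beside them the mean and SD over spots. Notch1 averaged 0.31 ± 0.043 over 9 spots and -0.029 ± 0.085 over 10 spots, and Dll1 0.43 ± 0.067 over 10 spots and 0.098 ± 0.069 over 9 spots.

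Lfng encodes the fringe enzyme. Neither of its probes was well above background in the flox TAM RNA of the genotype comparison, so only 1 of the 2 deleted RNAs measured it. Its brightness was 127 in wild-type TAM and 121 in flox vehicle, against 104 and 108 in the deleted RNAs. The groups did not overlap, but the values lay close together. The ratio on the log2 scale was 0.29 and then 0.16 (mean 0.23 ± 0.087, limma adjusted p 0.284), and the second probe gave 0.19 and 0.25. The size depended on how the signals were made: the mean was 0.52 without background subtraction and 1.41 with the processed signals of the scanner software, which differ in several steps, with limma adjusted p of 0.210 and 0.234.

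The target Hes1, a repressor that holds progenitor cells back from differentiation in many tissues, differed to the same degree on both arrays. Its brightness was 962 in wild-type TAM and 988 in flox vehicle. It was 670.3 and 714 in the deleted RNAs of the genotype and treatment comparisons. The 2 Sox9-expressing RNAs were close to each other and well above both deleted ones. The log2 ratios were 0.52 and 0.47, or 1.44-fold and 1.38-fold, with a mean of 0.49 ± 0.038 (SD, n = 2 arrays) and a limma adjusted p of 0.135. The mean lay above that of 96.3% of all genes tested.

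The targets Hey1 and Heyl, relatives of Hes1, differed on 1 array. Hey1 had a brightness of 155 in wild-type TAM and 147 in flox TAM of the genotype comparison, and of 267 in flox vehicle and 147 in flox TAM of the treatment comparison. Flox vehicle stood far above the other 3 RNAs, of which wild-type TAM was just above the deleted ones. Hey1 had log2 ratios of 0.075 and 0.86 (mean 0.47 ± 0.55, limma adjusted p 0.361). Heyl was at 254 in wild-type TAM, 265 and 264 in the deleted RNAs and 384 in flox vehicle. Here too flox vehicle was the one RNA that stood apart, and wild-type TAM was the dimmest of the 4. Heyl had log2 ratios of -0.063 and 0.54 (mean 0.24 ± 0.43, limma adjusted p 0.519), and the second Heyl probe gave -0.025 and 0.24.

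**Figure D3:**
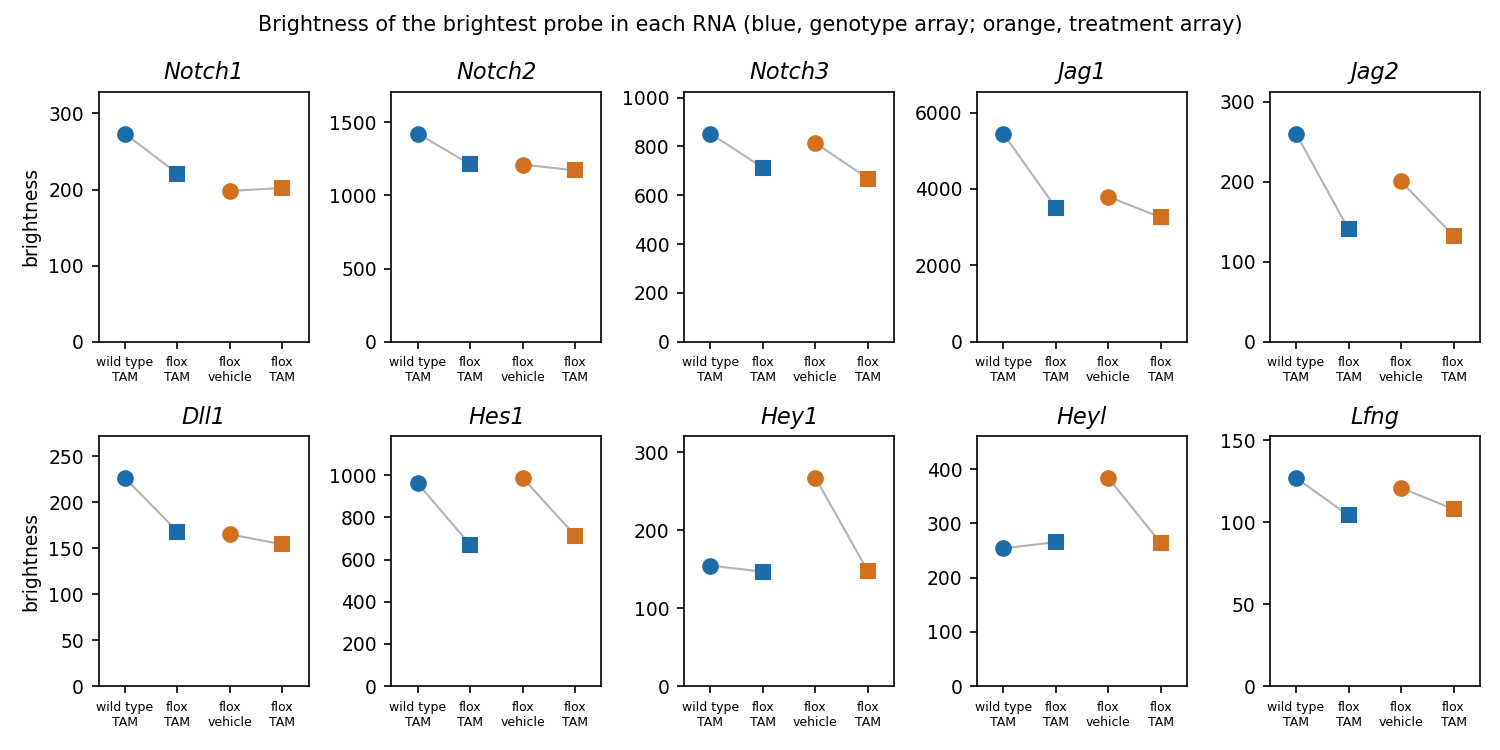
Brightness (y axis, scanner units after normalization, from 0, with a scale of its own for each gene) of the brightest probe of each Notch gene in the 4 RNAs (x axis), with lines joining the RNAs of one array. Jag2 and Hes1 drop from the Sox9-expressing to the Sox9-deleted RNA on both arrays, Notch1 and Dll1 are high in wild-type TAM alone, and Hey1 and Heyl in flox vehicle alone.

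The spread among the 10 genes thus lay mainly between the 2 Sox9-expressing RNAs. Between the deleted RNAs of the arrays, the brightest probes differed by -0.13 to 0.092 on the log2 scale (treatment minus genotype array). Between the Sox9-expressing RNAs, flox vehicle minus wild-type TAM, the difference was -0.52 for Jag1, -0.46 for Notch1, -0.46 for Dll1 and -0.38 for Jag2. It was -0.23 for Notch2, -0.067 for Notch3, -0.071 for Lfng, 0.038 for Hes1, 0.79 for Hey1 and 0.60 for Heyl. Mouse line, treatment and array all differ between the Sox9-expressing RNAs and cannot be told apart, and the difference was not tested. The deleted RNAs share line and treatment. The same differences over all genes are not given here, so this spread is not shown to be particular to the Notch genes.

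Markers of stromal cells moved along with the split between the arrays. All 7 fibroblast markers were lower with Sox9 on the genotype array and 6 of 7 were higher on the treatment array, and their summed brightness was 27523 in wild-type TAM, 50322 and 43154 in the deleted RNAs and 74288 in flox vehicle. Of 8 markers of smooth muscle and mural cells, 1 was higher on the genotype array and 7 on the other, with sums of 16063 in wild-type TAM, 23250 and 26076 in the deleted RNAs and 36873 in flox vehicle. All 5 tested skeletal muscle markers were lower in the first and higher in the second. By summed brightness these lists were highest in flox vehicle, as Hey1 and Heyl were. On the genotype array they differed from Hey1 and Heyl. There the sums were lower with Sox9, while Hey1 and Heyl were near even, at log2 ratios of 0.075 and -0.063. The median log2 ratio of the basal markers was 1.04 on the genotype array and 0.58 on the treatment array. Notch1, Dll1, Jag1 and Jag2 also had the larger value on the genotype array. The basal markers were not alike in this. Itgb4, an integrin subunit of hemidesmosomes, was at 1.15 and 0.058, while Trp63 was at 1.65 and 1.55 and Cdh3 at 0.63 and 0.46. Of 8 endothelial markers, 5 were well above background in all 4 RNAs, and Pecam1, Tek and Tie1 in none. Of these 5, Emcn, a sialomucin of endothelium, at -0.37 and 0.34, and Eng, a TGF-β coreceptor, at -0.54 and 0.092, were brightest in flox vehicle. Cdh5, Kdr and Esam were instead brightest in flox TAM of the treatment array, at 168, 189 and 128, against 150, 177 and 124 in flox vehicle. Of 8 leukocyte markers, 3 were well above background in all 4 RNAs, among them Cd68, a macrophage marker, at -0.69 and -0.77, while Ptprc, Cd3e and Itgam were so in none. The part of other cell types in the Notch values was not tested.

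**Figure D4:**
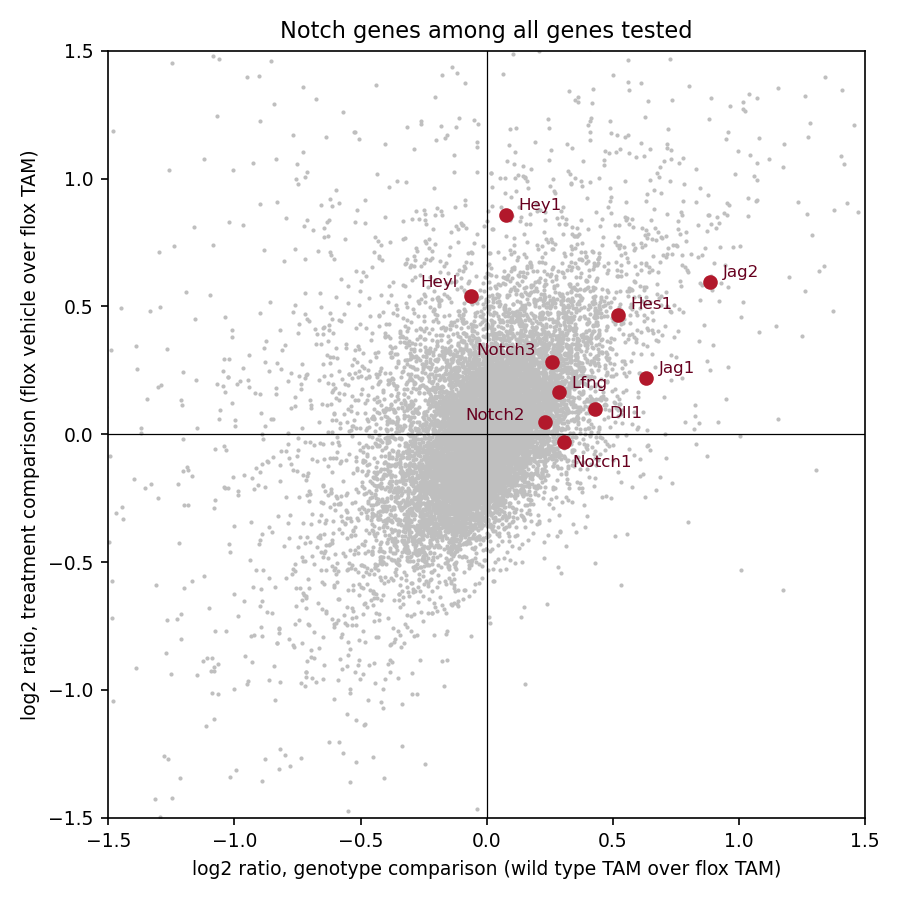
Log2 ratio in the genotype comparison (x axis) against that in the treatment comparison (y axis) for all genes tested (gray points, with 147 of 15131 genes outside the axes of ±1.5) and the 10 Notch genes (red). Jag2 and Hes1 lie away from 0 on both axes, Hey1 and Heyl along the vertical axis, and Jag1, Dll1 and Notch1 nearer the horizontal one.

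The genes whose levels over the 4 RNAs were most like those of Jag2, by Euclidean distance of the centred log2 levels, were D8Ertd82e, Itga6 and Ttc23, at distances of 0.031, 0.053 and 0.064. Itga6, an integrin subunit of basal cells, had log2 ratios of 0.96 and 0.58. Likeness over 4 RNAs is a description only.

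Beyond the 10 genes, 59 other genes of the pathway were on the array, and 48 of them were tested. Of the 48, 22 were higher with Sox9 on both arrays, 13 were lower on both and 13 had opposite signs. Of all 15131 genes, 5120 (33.8%) were higher on both, 5106 lower on both and 4905 of opposite signs. The median of the 48 mean log2 ratios was 0.044, against 0.0032 over all genes. None was called by limma after adjustment and none was 1.5-fold different on both arrays. At an unadjusted p of 0.05 limma marked 8, of which 6 were higher and 2 lower, where 19.5% of all genes were marked and 10.5% were marked as higher. The paired test of the methods called 0 of them after adjustment, and 0 of all 22731 tested probes.

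Of the other receptors and ligands, Dlk2, a Delta-like protein that is known to dampen Notch, had log2 ratios of 0.39 and 0.69 (limma adjusted p 0.167). Dll3, Dll4, Dlk1 and Dner did not pass the filter on dim probes. Nrarp, a direct target whose protein feeds back on Notch signaling, had the order of Hey1, at 0.23 on the genotype array and 0.87 on the other (limma adjusted p 0.264). Of the other Hes and Hey factors, Hes3, Hes5, Hes7 and Hey2 did not pass the filter.

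The processing of the receptor did not move one way. Adam10, the protease that cuts the bound receptor, had log2 ratios of 0.34 and 0.53 (limma adjusted p 0.175). The γ-secretase subunit Psen2, a catalytic one, was at -0.20 and -0.25, and Psenen, another subunit, at -0.25 and -0.15, with limma adjusted p of 0.266 and 0.307. Of the 9 tested proteases and γ-secretase genes, 4 were higher on both arrays and 3 lower. Among the 7 tested genes of the nuclear complex the mean log2 ratio ran from -0.099 to 0.23, and Rbpj itself, the DNA-binding partner of the receptor, was at 0.029 and 0.0014.

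Of the 12 tested corepressors, 6 were higher on both arrays and 3 lower. Tle1 and Tle2, Groucho proteins that Hes factors recruit, had log2 ratios of 0.42 and 0.57 and of 0.32 and 0.34, with limma adjusted p of 0.143 and 0.185. Spen, a corepressor that binds RBPJ, was at -0.19 and -0.26 (limma adjusted p 0.263). Of the 11 genes of ligand ubiquitination and receptor turnover, 2 were higher on both arrays and 4 lower. The lowest were Dtx4 at -0.058 and -0.32 and Dtx1 at -0.12 and -0.18, both Deltex ubiquitin ligases, with limma adjusted p of 0.401 and 0.385.

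**Figure D5:**
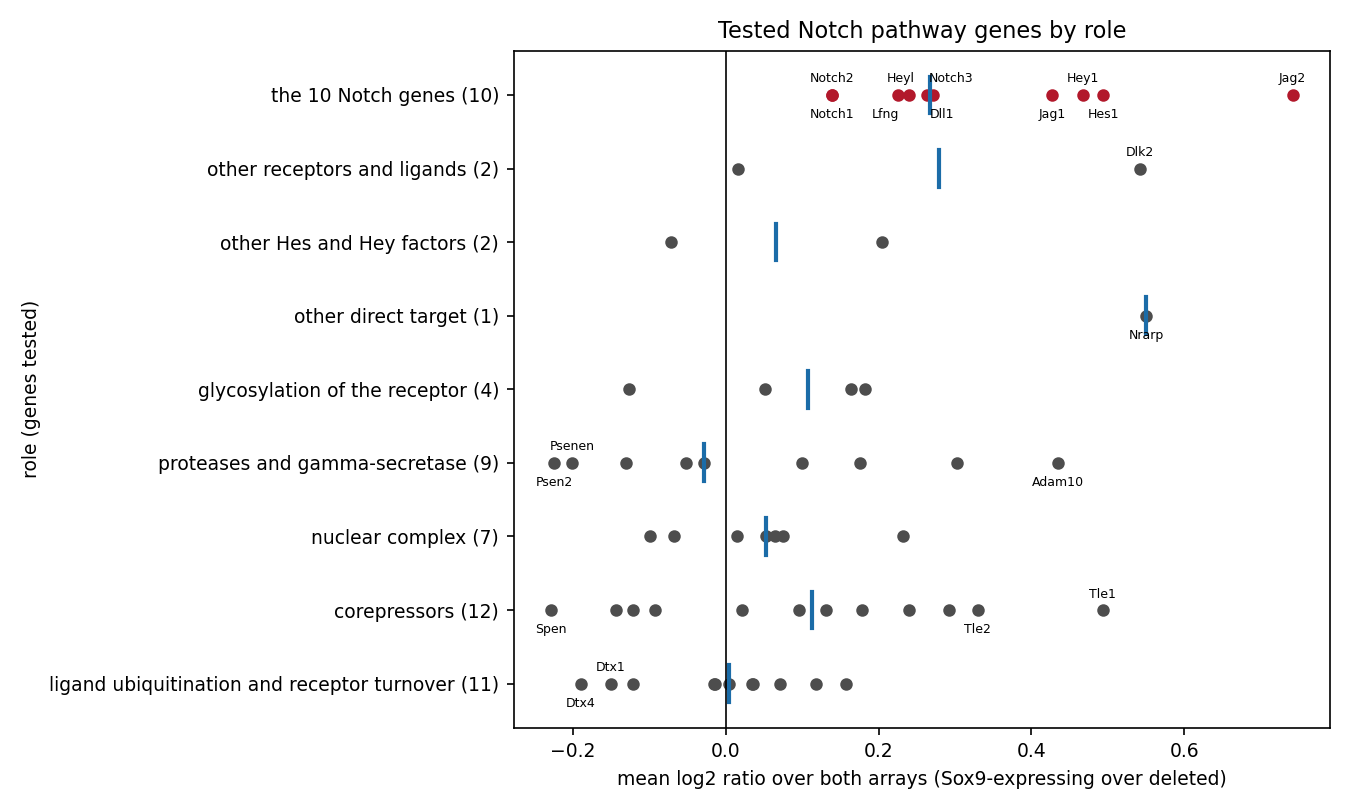
Mean log2 ratio over both arrays (x axis, Sox9-expressing over Sox9-deleted RNA) of the 10 Notch genes (red) and the 48 other tested pathway genes (gray) by role (y axis, with the number tested), with a bar at each median. The 10 Notch genes run from 0.14 to 0.74, and the other groups but the single direct target and the 2 other receptors and ligands have medians of -0.029 to 0.11.

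Promoters of 7 of the 10 genes were found among the RefSeq promoter sequences (GRCm38.p6, from 250 bases before the start to 50 after it), in 8 entries. The promoters of Hes1, Hey1 and Heyl were not searched. The 8 entries were searched on both strands for the RBPJ letters GTGGGAA and their core TGGGAA, which every GTGGGAA also holds, and for the Sox letters ACAAAG and ACAATG. Of 32851 promoters, 6.38% held GTGGGAA, 25.6% TGGGAA, 18.7% ACAAAG and 12.6% ACAATG. Among the 8 entries GTGGGAA and TGGGAA were found in that of Lfng alone, ACAAAG in those of Dll1 and Lfng and ACAATG in those of Dll1 and Jag1. The stretch of the Lfng promoter at chr5:140607192-140607278 (GRCm38.p6, plus strand) is shown with GTGGGAA in capitals, from -109 to -103 of the start. A match is a description and does not show binding.
Lfng promoter: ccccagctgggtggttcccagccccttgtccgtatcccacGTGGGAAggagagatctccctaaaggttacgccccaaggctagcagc

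The count of Notch genes higher on both arrays depended in part on scaling. It was 9 with each array centred on its median in place of loess, which moved the median of all genes to 0.016 in the genotype and 0.42 in the treatment comparison, and 6 relative to those medians. It was 6 with the processed signals of the scanner software, where the median of all genes was -0.15 and -0.13 and where Notch2 was at -0.091 and Dll1 at -0.0038 in the treatment comparison, and 8 relative to those medians.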

How the data were processed

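RNA from 4 preparations was measured on 2 two-color Agilent arrays. The authors' scanner software, Agilent Feature Extraction 10.5.1.1, gave the deposited mean and local background intensities of each spot, uncorrected, and flags for background, saturation and outliers. The software also made the deposited processed intensities, background-subtracted, detrended and dye-normalized, and their log10 ratios. The authors' deposited values outside the scanner files are log2 ratios of Cy5 over Cy3, as the values show, by steps not given in the sources used here. The members and lists were chosen with earlier results of these data known.

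Intensities were corrected with normexp (offset 50) and loess within each array in limma 3.58.1 (R 4.3.3). Of 45018 spots, 1639 controls and 126 and 130 outliers were dropped, and replicate spots were averaged, which left 41174 probes. A probe was tested if either dye was well above background on each of the arrays, the dye being the same (22731 probes), by lmFit and eBayes of the mean against 0, 2-sided, with Benjamini-Hochberg adjustment over all of them and 1 residual degree of freedom. A gene is its brightest tested probe. Brightness per RNA was taken after Aquantile normalization between arrays. The number of arrays limits the precision, and 0 spots were saturated. Samples were grouped by title, treatment and dye of the labels. The genotype label reads Sox9 null for both RNAs of the treatment comparison, the vehicle-treated one included, so there the treatment was used, and vehicle-treated flox RNA was taken as Sox9-expressing. The source names call the Cy5 sample SOX9 and the other control, and were not used. Named were all 10 genes, and of the other pathway genes the 5 highest and 5 lowest mean log2 ratios, those called and those 1.5-fold on both arrays. For Jag2 the 3 nearest genes were named. Other genes were named after their values were seen. Alternatives were other background corrections, scalings, filters, probe rules, the authors' values, the paired test of the methods and leaving out each array. The code was tested on simulated data. Python 3.11.15, numpy 2.4.6, pandas 2.3.3, matplotlib 3.10.9 and the data.table package, version 1.17.8, were used. Some marker genes are not reported here.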

Additional observations from a re-analysis of the deposited data

Results flagged for a closer look

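Notch1 had opposite signs on the arrays, at 0.31 on the genotype array and -0.029 on the treatment array in log2 ratio. Heyl also had opposite signs, at -0.063 and 0.54. With 1 array for each comparison, the difference between them was not tested.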

How the results depend on the processing

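With 2 arrays and 1 residual degree of freedom, a missed threshold says little about any single gene, and dim probes are understated by the offset of 50. None of the 10 Notch genes and none of the other pathway genes was called by limma or by the paired test under any alternative that allows a test. Over all 22731 probes, limma called 0 without background subtraction, with an offset of 10, with scaled arrays and with processed signals. It called 2 probes with either other filter, 522 with median centring and 68 with the authors' values. Where 0 probes were called in all, the result says nothing about the Notch genes. The median log2 ratio of the 10 genes was 0.27, and it was 0.41 without background subtraction, 0.35 with an offset of 10, 0.51 with median centring, 0.30 with the arrays scaled to the same spread, 0.38 with the processed signals of the scanner software and 0.41 with the authors' values. Leaving out an array gave 0.25 to 0.30. The median of the other pathway genes was 0.044, and it was 0.011 without background subtraction, 0.28 with median centring and -0.082 with processed signals, where the median of all genes was 0.21 and -0.15. Leaving out an array gave 0.037 to 0.077. The sign of the mean turned for Notch1, which was at -0.029 without the genotype array and 0.31 without the treatment array, and for Heyl, at 0.54 and -0.063. Lfng was not tested where both dyes had to be well above background. The cause of these shifts was not tested. Each log2 ratio pairs the 2 RNAs of an array, which is the pairing of the paired test. With the replicate number as a block, no paired analysis was possible because the comparisons share fewer than 2 replicate numbers.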
